A study of Mus musculus with 9 samples.

Results

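The Frizzled receptors and the LRP5/6 co-receptors, through which cells receive Wnt proteins, were followed across 3 mouse mammary cultures. The members were Fzd1, Fzd2, Fzd3, Fzd4, Fzd5, Fzd6, Fzd7 and Fzd8 with Lrp5 and Lrp6, taken by name and not by their values. They were measured by every probe set that the array's annotation ties to 1 of these symbols alone, which gave 19 probe sets for 10 genes, of 22626 probe sets and 12393 genes in all. For 6 genes there was more than 1 probe set, and the one with the highest mean over all arrays is called the main probe set.

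RNA was compared on MOE430A Gene Chips from 3 tumorsphere cultures (TMS), 3 preparations of mammospheres induced to differentiate (diffMMS) and 3 preparations of mammospheres (MMS). Tumorspheres are non-adherent spheres grown in stem cell medium from independent mammary tumors of MMTV-Neu mice, in which a mammary tumor virus promoter drives the Neu receptor in mammary epithelium, and the age of these mice is not given in the sources used here. Mammospheres were grown in the same medium from glands of virgin female FVB/N mice aged 6 to 8 weeks, and both kinds of sphere were used at passages 3 to 5. For diffMMS, mammospheres were dispersed, plated on rat-tail collagen and kept in medium with serum for 7 days, so that serum, attachment and time in culture changed together. All values are log2 intensities after addition of a pseudocount of 8.67 and quantile normalization, so that a difference of 1 on this scale is close to a 2-fold change in intensity and understates it for dim probe sets. Differences were tested with limma over all 22626 probe sets, and an adjusted p under 0.05 is referred to as a call.

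Frizzled proteins span the membrane repeatedly and bind the lipid of a Wnt protein with a cysteine-rich domain outside the cell. In the β-catenin branch, the Wnt also binds Lrp5 or Lrp6, whose tail is then phosphorylated and holds Axin at the membrane, so that β-catenin is no longer degraded. Frizzled receptors also work without the LRPs, in planar cell polarity and in responses to Wnts such as Wnt5a. In the mammary gland, Wnt signaling is known for its part in duct branching and in the upkeep of basal stem cells.

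The arrays were alike in depth of signal, with median intensities of 83.8 to 88.3 before normalization, and replicate arrays had Spearman correlations of 0.985 or more. The array codes of the tumorspheres form a run apart from those of the other 6 arrays, so that a difference between runs and a difference between TMS and the other cultures cannot be told apart. The cultures are mixtures, and a change in the share of a cell type cannot be told apart from a change in RNA per cell. Of 14 luminal epithelial markers, 10 were higher in TMS than in MMS, and their summed level was 12.40 to 13.05 in TMS, 9.85 to 10.17 in diffMMS and 9.81 to 9.96 in MMS on the log2 scale. Cdh1, which encodes E-cadherin, stood at percentiles 20.9 to 50.8 of the probe sets of an array in TMS, 0.988 to 3.26 in diffMMS and 0.866 to 3.91 in MMS. Epcam, another epithelial surface gene, stood at 96.3 to 97.3 in TMS, 33.0 to 42.2 in diffMMS and 37.6 to 47.0 in MMS. Each of 11 fibroblast markers stood at percentile 69.8 or above on all 9 arrays. Cdh1 was thus among the dimmest probe sets of MMS and diffMMS. It was picked after its values were seen and does not stand for the epithelial markers as a set. Of the 14 luminal markers, 5 stood in the lowest 25% of probe sets on each MMS array and 5 or 6 on each diffMMS array. Of 12 basal and myoepithelial markers, 1 or 2 stood there on these arrays. The cell types of the cultures were not tested, and the cultures are referred to by their names alone. Erbb2, the mouse gene of the Neu receptor, read 7.73, 7.66 and 7.49 in TMS, 7.43, 7.43 and 7.51 in diffMMS and 7.23, 7.31 and 7.31 in MMS. TMS exceeded MMS by 0.34 (adjusted p = 0.0128 from limma). Whether this probe set reads the transgene was not tested.

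Fzd2, Fzd4 and Fzd8 carried the largest changes among the members, and all 3 were highest in diffMMS. Of the 10 members, 6 were called between diffMMS and MMS, where 34% of all genes were called. Of these members 4 were higher in diffMMS and 2 were lower, beside 17.9% and 16.2% of all genes. By probe sets, 8 of the 19 were higher and 3 were lower, beside 16.1% and 17% of all probe sets (33.1% in either direction). The median log2 difference of the 10 members by main probe set was 0.27, beside 0.05 over all 12393 genes. The 4 higher genes were Fzd2, Fzd4, Fzd5 and Fzd8, and the 2 lower genes were Fzd3 and Fzd7. Groups did not overlap for 8 members, and 51.6% of all probe sets did not overlap in this comparison.

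**Figure D1:**
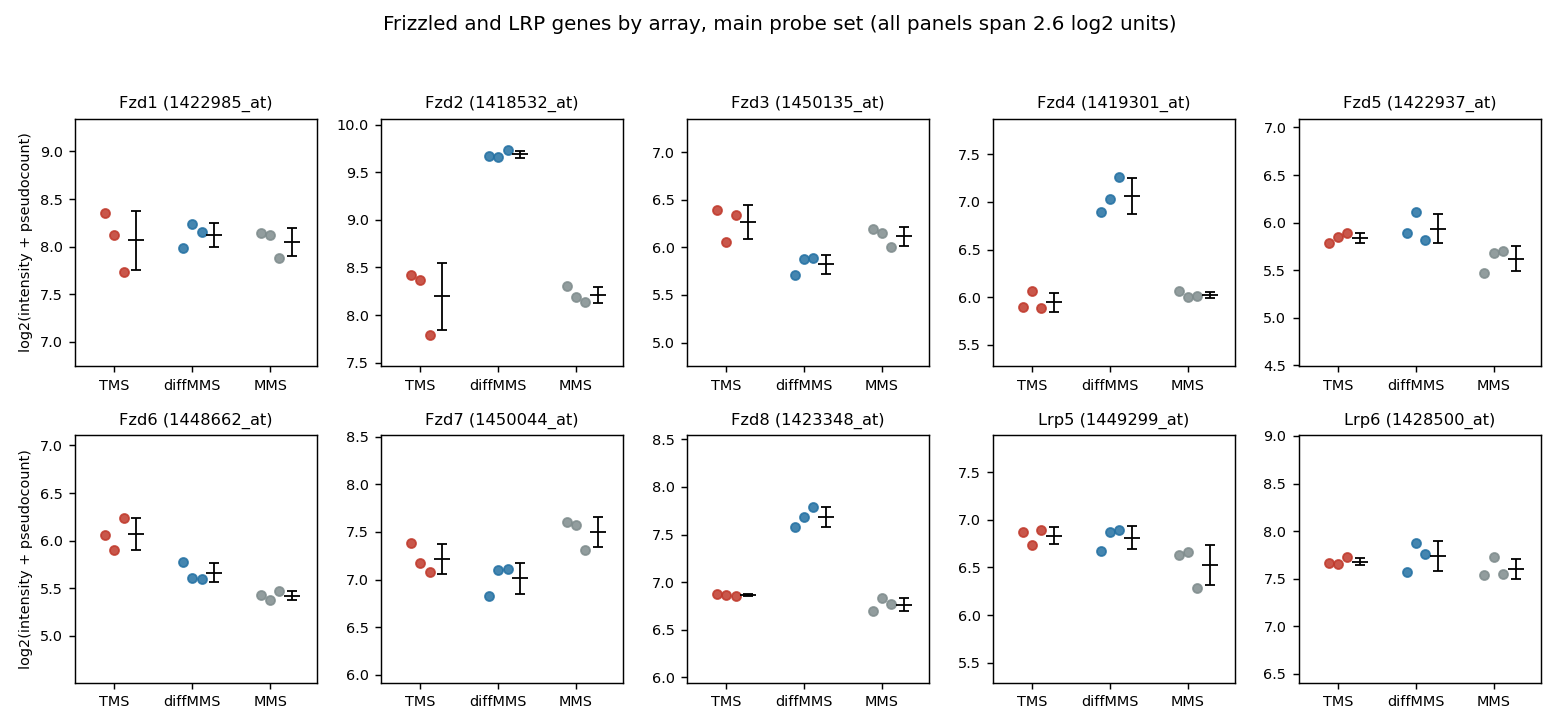
Log2 intensity (with pseudocount) of the main probe set of each member by array (9 in all) and culture, with tumorspheres (TMS) at the left, then mammospheres induced to differentiate (diffMMS) and mammospheres (MMS). Points are arrays and the black bars give the group mean and SD (n = 3). The diffMMS arrays stand apart above all others for Fzd2, Fzd4 and Fzd8, and the TMS arrays do so for Fzd6.

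Fzd2 encodes a receptor for Wnt5a and other Wnts. Its main probe set read 8.42, 8.37 and 7.79 in TMS, 9.67, 9.66 and 9.73 in diffMMS and 8.30, 8.19 and 8.14 in MMS. The diffMMS arrays lay together above all 6 others, and TMS array 1101A was the lowest of the 9. The log2 difference of diffMMS against MMS was 1.48 (standard error 0.137, adjusted p = 7.4e-06 from limma), or 2.78-fold. The other Fzd2 probe sets gave 1.59 and 1.93, or 3.01-fold and 3.82-fold, so that all 3 probe sets of the gene were higher in diffMMS.

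Fzd4 encodes the receptor of norrin, a ligand unrelated to Wnts that acts with Lrp5 in retinal vessels. Its main probe set read 5.89, 6.06 and 5.89 in TMS, 6.89, 7.03 and 7.26 in diffMMS and 6.06, 6.0 and 6.02 in MMS. All diffMMS arrays were above the arrays of the other cultures, which overlapped each other. The difference of diffMMS against MMS was 1.04 (standard error 0.0947, adjusted p = 6.8e-06 from limma), or 2.05-fold. The other Fzd4 probe set, which stood at percentiles 9.62 to 13.8 of its arrays and so near the dim end, gave 0.19 (adjusted p = 0.0176 from limma), a call that was lost without MMS array 859A or 860A or diffMMS array 863A (adjusted p up to 0.0649).

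Fzd8, whose cysteine-rich domain is the one in which the grip on a Wnt lipid was first seen in a crystal, had 1 probe set. It read 6.88, 6.87 and 6.86 in TMS, 7.58, 7.68 and 7.79 in diffMMS and 6.69, 6.83 and 6.77 in MMS. The difference of diffMMS against MMS was 0.92 (standard error 0.0762, adjusted p = 2.8e-06 from limma), or 1.89-fold. The 3 TMS arrays had an SD of 0.0118 and lay between the other groups.

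Fzd5, a receptor with a known part in yolk sac vessels and in Paneth cells of the intestine, differed less. It read 5.79, 5.85 and 5.89 in TMS, 5.89, 6.11 and 5.81 in diffMMS and 5.47, 5.68 and 5.71 in MMS. All 6 TMS and diffMMS arrays were above the MMS arrays. Against MMS the difference was 0.31 in diffMMS (adjusted p = 0.0181 from limma) and 0.22 in TMS (95% interval 0.03 to 0.41, adjusted p = 0.130). The diffMMS call was lost without MMS array 858A or diffMMS array 862A, with adjusted p up to 0.0786. TMS against diffMMS gave -0.09 (95% interval -0.29 to 0.10).

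Fzd7 and Fzd3 were lower in diffMMS than in MMS by their main probe sets. Fzd7, which marks stem cells of the intestine and has been tied to basal mammary cells, read 7.39, 7.18 and 7.07 in TMS, 6.82, 7.10 and 7.11 in diffMMS and 7.61, 7.58 and 7.31 in MMS. The diffMMS arrays were all below the MMS arrays, with a difference of -0.49 (standard error 0.113, adjusted p = 0.00617 from limma). Its other probe set read 7.41, 7.20 and 6.98 in TMS, 7.00, 6.99 and 6.95 in diffMMS and 7.10, 6.92 and 6.82 in MMS, and its difference was 0.04 (95% interval -0.20 to 0.27). The 2 probe sets therefore disagreed. Within each array, the main probe set minus the other was -0.02, -0.02 and 0.10 in TMS, -0.18, 0.11 and 0.16 in diffMMS and 0.51, 0.66 and 0.49 in MMS. The MMS arrays were thus high by the main probe set and not by the other. For this within-array difference, an exact two-sided permutation test over arrays gave p = 0.1 for TMS against MMS and for diffMMS against MMS, which is the smallest p that 3 arrays against 3 can give. This check was chosen after the values were seen. TMS against MMS gave -0.29 by the main probe set (adjusted p = 0.120 from limma) and 0.25 by the other (adjusted p = 0.154), which are opposite in sign and without a call. With array weights both were called, each in its own direction, and the other probe set was also called without TMS array 1101A (lowest adjusted p 0.0320 for the main and 0.0244 for the other).

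Fzd3, a planar cell polarity receptor that guides axons, had 4 probe sets. Its main probe set read 6.39, 6.06 and 6.33 in TMS, 5.71, 5.88 and 5.88 in diffMMS and 6.19, 6.15 and 6.01 in MMS. The difference of diffMMS against MMS was -0.29 (adjusted p = 0.0358 from limma), and the call was lost without any 1 of 858A, 859A, 861A, 862A or 863A (adjusted p up to 0.125). Of its other probe sets, 1 was lower with a difference of -0.19 (adjusted p = 0.0271), a call lost under 6 of 17 alternative settings, among them the fits without 859A, 860A, 862A or 863A (adjusted p up to 0.197), and the remaining ones gave -0.17 and 0.05 without a call. The probe sets at -0.19 and 0.05 were dim, at percentiles 13.8 to 20.6 of the 9 arrays. TMS against MMS gave 0.15 by the main probe set (95% interval -0.07 to 0.36) and -0.07 to 0.13 by the others, without a call.

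Other genes of the cultures moved beside these receptors. Of 12 basal and myoepithelial markers, 4 were higher in diffMMS than in MMS and 1 was lower, and their summed level was 11.55 to 11.90 in diffMMS and 10.18 to 10.28 in MMS. Acta2, the smooth muscle actin of myoepithelial cells and myofibroblasts, was higher by 2.59. The other higher genes were Trp63, Myh11 and Cnn1, while Itga6 was lower and 7 were not called. The median difference of these 12 markers was 0.19, beside 0.05 over all genes. A summed level adds intensities, so that bright genes weigh most in it. Of 11 fibroblast markers, 5 were higher and 3 were lower, with a summed level of 15.55 to 15.57 in diffMMS and 15.33 to 15.45 in MMS. On each of these arrays 1 or 2 of the basal markers stood in the lowest 25% of probe sets, and 0 of the fibroblast markers did. Of 12 macrophage markers, 6 were higher and 1 was lower, with a summed level of 10.21 to 10.80 in diffMMS and 9.99 to 10.11 in MMS. Of 10 endothelial markers, 2 were higher and 1 was lower in diffMMS than in MMS, and in TMS 4 were lower than in MMS and 6 were lower than in diffMMS. Their summed level was 9.88 to 10.11 in TMS, 10.53 to 10.56 in diffMMS and 10.12 to 10.16 in MMS. The summed levels of the basal and fibroblast markers were also highest in diffMMS. The median difference of the endothelial markers between diffMMS and MMS was -0.03, beside 0.05 over all genes. Of the 10 endothelial markers, 2 or 3 stood in the lowest 25% of each array. The part of these cells in the receptor differences was not tested.

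**Figure D2:**
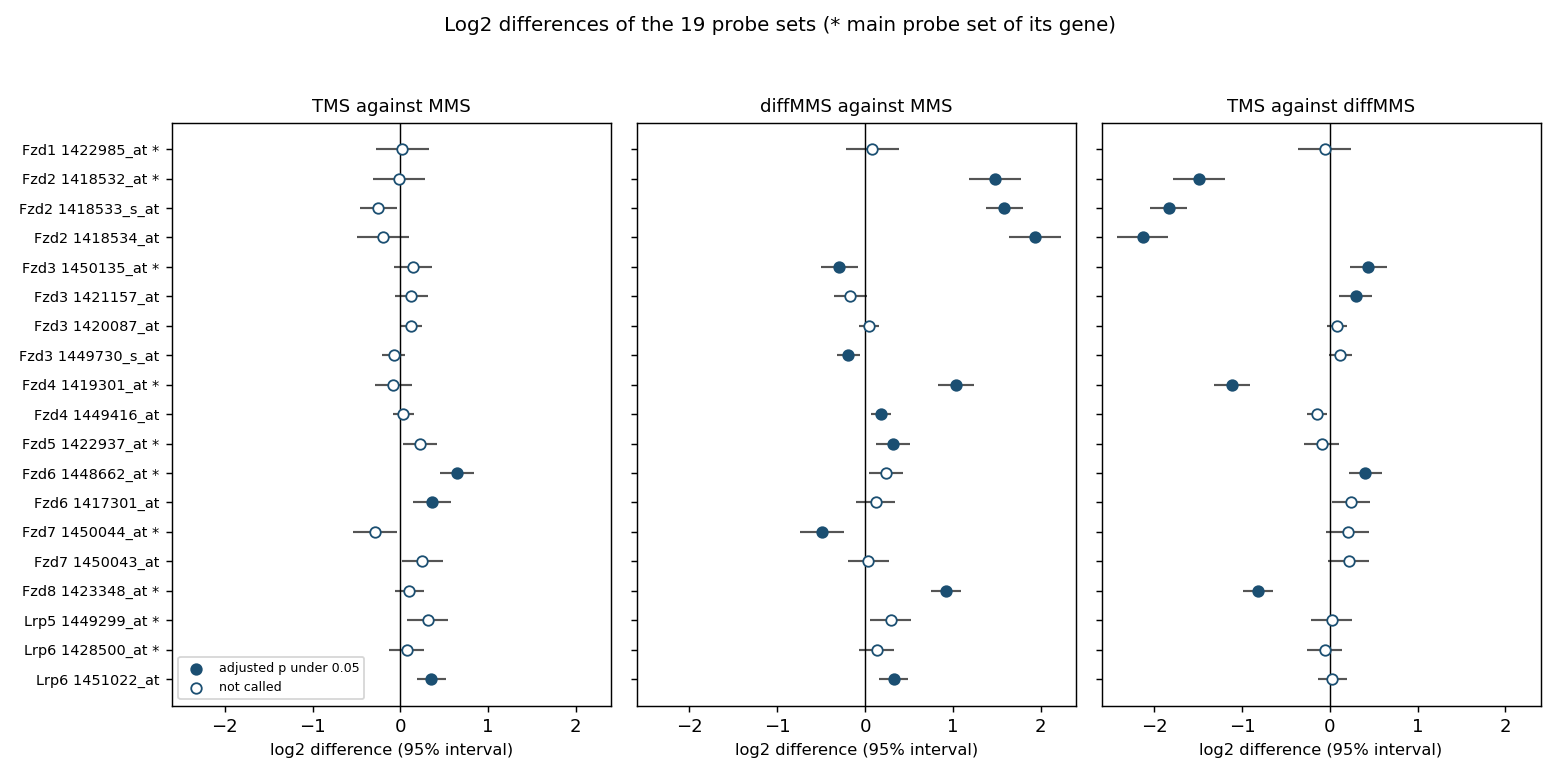
Log2 differences of the 19 probe sets in the 3 comparisons, with bars for the 95% interval from limma and filled points for an adjusted p under 0.05. An asterisk marks the main probe set of a gene. The 3 Fzd2 probe sets, Fzd8 and the main Fzd4 probe set lie far from 0 in the comparisons that involve diffMMS. Fzd6 lies highest in TMS against MMS with 0.64.

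RefSeq's table of promoters (GRCm38.p6) held 4 of the members, Fzd1, Fzd4, Fzd5 and Fzd7. The 250 bases before the start of 3 of them are shown, because Fzd4 was the called gene with the largest difference among the 4, Fzd7 differed the opposite way and Fzd1 was not called in any comparison. Capitals mark CTTTGA and CTTTGT, the core of sites for the TCF/LEF partners of β-catenin, and GGGCGG, the GC box that SP1 binds, on either strand, so that their reverse complements are in capitals too. Each window is written in the direction of its gene. Overlapping matches were each counted. The Fzd4 window is chr7:89404116-89404365 on the plus strand, the Fzd7 window is chr1:59481897-59482146 on the plus strand and the Fzd1 window is chr5:4758217-4758466 on the minus strand.
Fzd4: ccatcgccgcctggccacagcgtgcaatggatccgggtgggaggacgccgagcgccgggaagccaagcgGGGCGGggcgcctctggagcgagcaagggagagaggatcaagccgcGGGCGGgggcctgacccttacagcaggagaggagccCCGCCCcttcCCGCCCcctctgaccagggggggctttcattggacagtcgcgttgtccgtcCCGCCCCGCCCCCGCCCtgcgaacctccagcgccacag
Fzd7: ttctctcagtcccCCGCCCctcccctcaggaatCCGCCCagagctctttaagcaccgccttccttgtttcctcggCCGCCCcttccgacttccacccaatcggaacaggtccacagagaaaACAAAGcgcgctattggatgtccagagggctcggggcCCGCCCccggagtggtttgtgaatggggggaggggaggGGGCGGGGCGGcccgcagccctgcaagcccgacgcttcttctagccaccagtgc
Fzd1: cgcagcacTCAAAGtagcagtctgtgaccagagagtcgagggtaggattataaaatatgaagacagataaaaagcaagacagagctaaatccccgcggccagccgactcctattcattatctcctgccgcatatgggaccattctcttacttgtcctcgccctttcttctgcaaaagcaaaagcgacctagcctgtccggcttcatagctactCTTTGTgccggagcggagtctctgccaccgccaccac
The Fzd4 window held 7 GC boxes and no TCF/LEF core, and its GC content was 72.8%. The Fzd7 window held 6 GC boxes and 1 CTTTGT with 65.2% GC. The Fzd1 window held no GC box, 1 CTTTGA and 1 CTTTGT with 51.2% GC, against a median of 52.4% over all 32851 windows. Of all windows, 32.7% held a GC box, 13.8% a CTTTGA and 16.5% a CTTTGT. The letters of AP-1 (TGANTCA) and TEAD (GGAATG) sites and the CArG box of SRF were not in these windows nor in that of Fzd5, and they were in 6.75%, 12.6% and 1.47% of all windows. Such matches describe the letters and not whether a factor binds.

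Between TMS and MMS, Fzd6 was the 1 member called by its main probe set, where 13.4% of all genes were called, and 0 members were lower, beside 6.22% of all genes called higher and 7.14% called lower. By probe sets, 3 of the 19 were higher and 0 were lower, beside 6.5% and 7.78% of all probe sets (14.3% in either direction). At an unadjusted p under 0.05, 4 members differed, with Fzd5, Fzd6 and Lrp5 higher and Fzd7 lower. The share of all genes at that threshold is not given here, so this count cannot be set against it. Groups did not overlap for 4 members, Fzd5, Fzd6, Fzd8 and Lrp5, and 33.3% of all probe sets did not overlap. The members' median was 0.09, beside 0.00 over all genes. Fzd6 acts in planar cell polarity and is known for orienting hair follicles in mice. It read 6.06, 5.90 and 6.24 in TMS, 5.78, 5.61 and 5.60 in diffMMS and 5.43, 5.37 and 5.47 in MMS. The 3 groups did not overlap, with TMS highest and MMS lowest. TMS exceeded MMS by 0.64 (standard error 0.0877, adjusted p = 5.9e-04 from limma), or 1.56-fold, and diffMMS by 0.41 (adjusted p = 0.00538). The step between diffMMS and MMS was 0.24 (95% interval 0.05 to 0.43, adjusted p = 0.0555), and it was called under 7 of 18 alternative settings, among them the values as deposited and the fits without TMS array 1100A or 1101A (adjusted p 0.0149 to 0.184 over the 18).

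The other Fzd6 probe set read 5.53, 5.68 and 6.0 in TMS, 5.54, 5.45 and 5.50 in diffMMS and 5.47, 5.31 and 5.36 in MMS. It was higher in TMS than in MMS by 0.36 (adjusted p = 0.0340 from limma), a call lost without any 1 of 1100A, 1101A, 859A, 860A or 863A (adjusted p up to 0.130). Against diffMMS it gave 0.24 (95% interval 0.02 to 0.46, adjusted p = 0.109), and the lowest TMS array lay below the highest diffMMS array. Both Fzd6 probe sets were modest in signal, at percentiles 20.0 to 41.1 of the arrays.

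Neither LRP co-receptor was called by its main probe set in any of the 3 comparisons. Lrp5, which is known for its part in bone mass, had 1 probe set that read 6.88, 6.73 and 6.90 in TMS, 6.68, 6.88 and 6.89 in diffMMS and 6.63, 6.66 and 6.28 in MMS. Every TMS and diffMMS array was above every MMS array, and MMS array 860A was the lowest. Against MMS the difference was 0.31 in TMS (95% interval 0.08 to 0.55, adjusted p = 0.0765 from limma) and 0.29 in diffMMS (95% interval 0.06 to 0.53, adjusted p = 0.0558). The difference of diffMMS was called under 4 of 18 alternative settings, which were the values as deposited, the filter on dim probe sets, array weights and the fit without diffMMS array 861A (adjusted p 0.0208 to 0.233 over the 18). TMS against diffMMS gave 0.02 (95% interval -0.21 to 0.26).

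Lrp6, the co-receptor that mouse embryos need for most Wnt responses, was not called by its main probe set. That probe set read 7.66, 7.65 and 7.72 in TMS, 7.57, 7.88 and 7.76 in diffMMS and 7.54, 7.73 and 7.55 in MMS, and the groups overlapped. The other probe set read 6.59, 6.67 and 6.64 in TMS, 6.73, 6.52 and 6.57 in diffMMS and 6.27, 6.24 and 6.34 in MMS. It was higher than in MMS by 0.35 in TMS (standard error 0.0758, adjusted p = 0.00905 from limma) and by 0.32 in diffMMS (adjusted p = 0.00643), while the main probe set gave 0.07 and 0.13 (adjusted p = 0.660 and 0.290). Within each array, the main probe set minus the other was 1.07, 0.98 and 1.09 in TMS, 0.83, 1.36 and 1.2 in diffMMS and 1.27, 1.48 and 1.22 in MMS. Its shift against MMS was -0.28 in TMS and -0.19 in diffMMS (exact two-sided permutation p = 0.1 and 0.4, smallest possible 0.1), and the diffMMS and MMS arrays overlapped, so that a difference between the probe sets was not shown there. TMS against diffMMS gave -0.06 by the main probe set (95% interval -0.25 to 0.14) and 0.03 by the other (95% interval -0.14 to 0.19).

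Fzd1, a close relative of Fzd2 and Fzd7, was not called in any of the 3 comparisons. It read 8.35, 8.12 and 7.74 in TMS, 7.99, 8.24 and 8.15 in diffMMS and 8.14, 8.12 and 7.88 in MMS, with all groups overlapping. Its difference was 0.02 for TMS against MMS (95% interval -0.28 to 0.32), 0.08 for diffMMS against MMS (95% interval -0.22 to 0.38) and -0.06 for TMS against diffMMS (95% interval -0.36 to 0.24). Differences within these intervals remain possible for Fzd1 with 3 arrays a group.

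**Figure D3:**
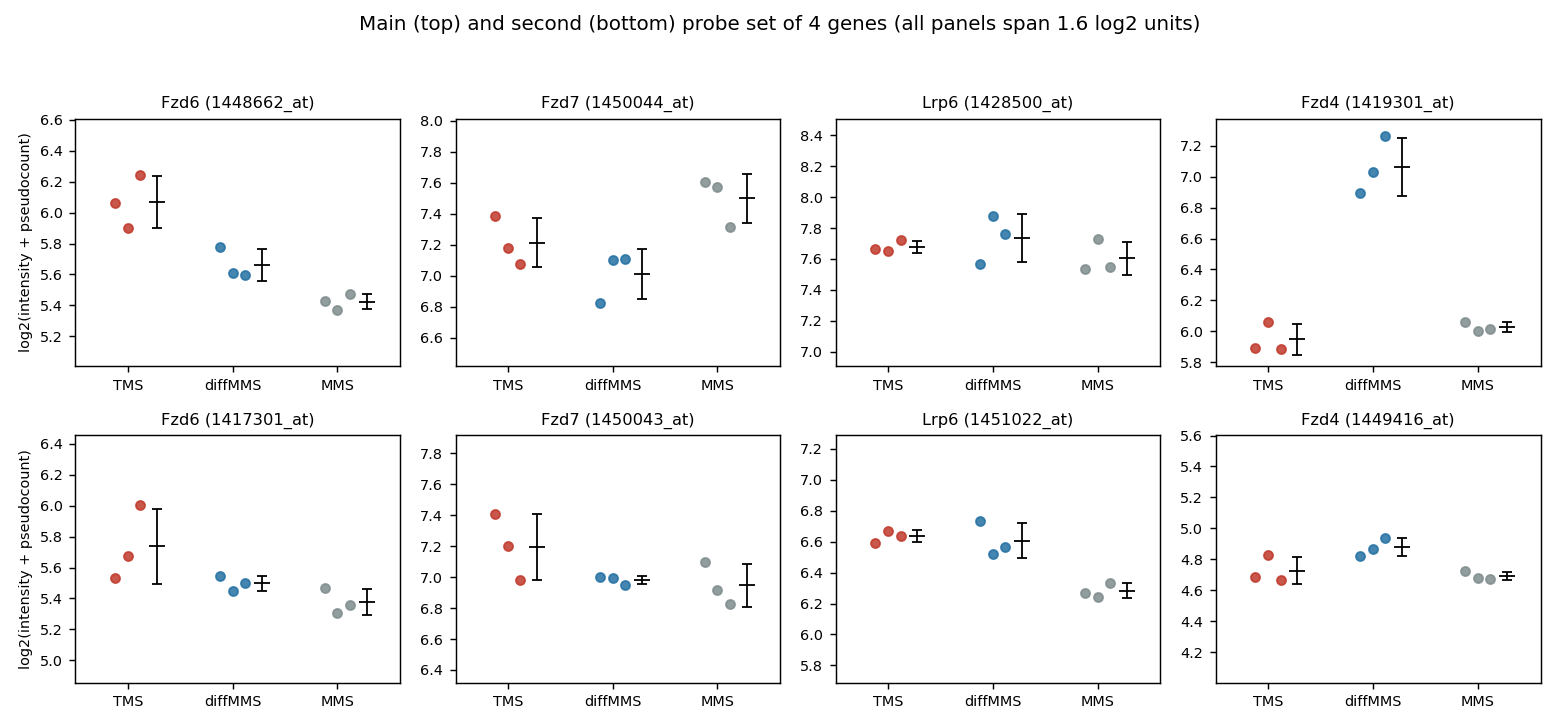
Log2 intensity (with pseudocount) of the main probe set (top) and the other probe set (bottom) of Fzd6, Fzd7, Lrp6 and Fzd4 on each array of TMS, diffMMS and MMS, with the group mean and SD (n = 3) as black bars. For Fzd7 the MMS arrays stand above the diffMMS arrays by the main probe set and overlap them by the other. For Lrp6 they overlap them by the main probe set and stand below them by the other.

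Luminal and macrophage markers moved with the TMS cultures. Against MMS, 10 of 14 luminal and 9 of 12 macrophage markers were higher in TMS and none was lower. The summed macrophage level was 10.89 to 11.60 in TMS and 9.99 to 10.11 in MMS, and 0 or 1 of its 12 genes stood in the lowest 25% of each of these arrays. Krt18, a luminal keratin, was 4.27 higher in TMS than in MMS, beside 0.64 for Fzd6. The part of luminal or macrophage cells in the Fzd6 and Lrp6 differences was not tested.

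Between TMS and diffMMS, 5 of the 10 members were called, where 24.9% of all genes were. Fzd6 and Fzd3 were higher in TMS, and Fzd2, Fzd4 and Fzd8 were lower, beside 12.3% of all genes called higher and 12.6% called lower. By probe sets, 3 of the 19 were higher and 5 were lower, beside 12.2% and 11.4% of all probe sets (23.7% in either direction). Groups did not overlap for 5 members, and 37.4% of all probe sets did not overlap. These comparisons share their arrays with the ones above. TMS against diffMMS was -1.49 for Fzd2 (standard error 0.137, adjusted p = 8.3e-06 from limma), -1.11 for Fzd4 and -0.82 for Fzd8 (adjusted p = 4.3e-06 and 9.4e-06). Fzd3 was 0.44 higher in TMS (standard error 0.0970, adjusted p = 0.00602), with no overlap of the groups, and another of its probe sets gave 0.29 (adjusted p = 0.0268), a call lost with only the 2 groups compared and without 1101A, 862A or 863A (adjusted p up to 0.101). The members' median was -0.06, beside -0.03 over all genes.

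TMS and MMS were not separated by the test for the 3 receptors that were high in diffMMS. The difference of TMS against MMS was -0.01 for Fzd2 (95% interval -0.31 to 0.29), -0.08 for Fzd4 (95% interval -0.28 to 0.13) and 0.10 for Fzd8 (95% interval -0.06 to 0.27). The other probe sets of Fzd2 gave -0.25 (95% interval -0.46 to -0.04, adjusted p = 0.116 from limma) and -0.20. By the main probe sets, diffMMS was thus above the others for Fzd2, Fzd4 and Fzd8, with TMS and MMS not separated by the test. For Fzd8 the TMS arrays nevertheless all lay above the MMS arrays. The main probe set of Fzd6 put TMS above diffMMS above MMS without overlap, and the step between diffMMS and MMS lay near the threshold. By the other Fzd6 probe set, TMS and diffMMS overlapped, as did diffMMS and MMS (0.12, adjusted p = 0.390 from limma). Only TMS against MMS was called by that probe set. For Fzd3, diffMMS was below both sphere cultures by the main probe set, and the sphere cultures were not separated from each other. That call against MMS was lost under 7 of 18 alternative settings. Another Fzd3 probe set was called lower against MMS (-0.19), and the remaining ones gave -0.17 and 0.05 without a call.

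Over the 9 arrays, which fall into 3 groups and are therefore not independent points, Fzd4 and Fzd8 had a Pearson correlation of 0.975, Fzd2 and Fzd4 of 0.966 and Fzd2 and Fzd8 of 0.958. Other genes came closer still to these patterns among 1508 genes with an SD of at least 0.3 over the arrays. For Fzd2 they were Il1r1, Sfrp1 and P4ha1 (correlations of 0.997, 0.994 and 0.991), an interleukin-1 receptor, a secreted protein that binds Wnts and Frizzleds, and a collagen prolyl hydroxylase. For Fzd4 they were Tmem45a, Il6st and Ppp1r3c (0.991, 0.990 and 0.988), and for Fzd8 the non-coding Snhg1 with Myl9 and Tagln (0.997, 0.997 and 0.994), the last 2 of the contractile machinery of smooth muscle. Tagln averaged 10.51 in diffMMS and 6.78 in MMS, and Myl9 averaged 8.94 in diffMMS and 5.68 in MMS.

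Wnt ligand genes were called in both directions. Of 19 Wnt genes, 3 were higher in TMS than in MMS and 1 was lower, and 6 were higher in diffMMS than in MMS and 1 was lower, with medians of 0.07 and 0.14. Wnt7b showed the largest called rise in TMS against MMS, with 0.37 (adjusted p = 0.0120 from limma). Wnt5a, a ligand of Fzd2 in other settings, read 6.64, 6.42 and 6.60 in diffMMS and 5.89, 5.70 and 5.72 in MMS, a difference of 0.78 (adjusted p = 1.6e-05). Wnt2 fell by 3.04 in diffMMS against MMS and by 0.85 in TMS against MMS (adjusted p = 1.1e-06 and 0.0247). In TMS against diffMMS, Wnt2 was 2.19 higher and Wnt5a fell by 0.61.

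Of the 7 measured genes of the norrin and R-spondin arm, 2 were higher in diffMMS than in MMS and 1 was lower. Norrin itself, the product of Ndp, read 5.10, 5.02 and 5.14 in TMS, 5.29, 5.05 and 5.15 in diffMMS and 5.05, 5.13 and 5.06 in MMS, and was not called. All these readings were dim, under the level of 5.57 below which 25% of all values lay. The lack of a call therefore says little about norrin. The R-spondins slow the loss of Frizzleds from the cell surface, and 2 of their genes were called in opposite directions in diffMMS. Rspo2 was 1.07 higher in diffMMS than in MMS and Rspo1 fell by 1.45 (adjusted p = 9.5e-07 and 6.2e-05 from limma). In TMS against MMS, Lgr6 and Rnf43 were higher, with 0.31 for Lgr6, a receptor of R-spondins, and 0.23 for Rnf43, a ligase that takes Frizzleds off the surface. In TMS against diffMMS, Rspo1 was 0.91 higher and Rspo2 fell by 1.05.

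Of 7 genes for secreted antagonists, 4 were higher in diffMMS than in MMS and 1 was lower. The 7 genes were Sfrp1, Sfrp2, Frzb, Sfrp4, Sfrp5, Wif1 and Cer1. In TMS against MMS, 0 were called by limma, and 0 had an unadjusted p under 0.05. Sfrp2 differed most in diffMMS, by 4.45, and Frzb fell by 0.73. Frzb was 0.84 higher in TMS than in diffMMS, and Sfrp2 fell by 4.33 there. Of 10 partners of Lrp5 and Lrp6, 3 were higher in diffMMS than in MMS and 2 were lower. Dkk2 was higher by 1.36, and Csnk1g2, a membrane-bound kinase of the Lrp6 tail, fell by 0.67. In TMS against MMS, 2 of the 10 were higher, and Kremen1, the co-receptor of Dkk proteins that takes Lrp6 off the surface, was highest of them with 0.35 (adjusted p = 0.0381 from limma). In TMS against diffMMS, Csnk1g2 was 0.61 higher and Dkk2 fell by 1.29.

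Of 10 genes of the other Wnt receptors and of planar cell polarity, in which Fzd3 and Fzd6 act, 3 were higher in TMS than in MMS and none was lower. Celsr2, a cadherin of planar cell polarity, read 6.78, 6.79 and 6.92 in TMS and 6.44, 6.31 and 6.38 in MMS, a difference of 0.45 (adjusted p = 0.00659 from limma). In diffMMS against MMS, 3 were higher and 2 were lower, among them Ryk with 0.45 and Prickle1, which fell by 0.44. In TMS against diffMMS, Prickle1 and Vangl1 were higher, by 0.51 and 0.36, and none was lower.

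Inside the cell, 3 of 13 cytoplasmic transducers were higher in TMS than in MMS and 1 was lower, and 4 were higher in diffMMS than in MMS and 1 was lower. Dact1, a binding partner of Dishevelled, was 1.43 higher in diffMMS than in MMS and Ctnnb1, the gene of β-catenin, fell by 0.61. In TMS against MMS, the kinase gene Csnk1d was 0.42 higher and Dvl2, a Dishevelled gene, fell by 0.38. Ctnnb1 was 0.39 higher in TMS than in diffMMS, and Dact1 fell by 1.64 there. Of 14 nuclear effectors and feedback targets, 3 were higher in diffMMS than in MMS and 5 were lower. Apcdd1, a membrane inhibitor of Wnt signaling, fell by 3.12 and Tcf7l2 was higher by 0.64. In TMS against MMS, 3 were higher and 1 was lower, with 0.86 for Ccnd1, the gene of cyclin D1, while Apcdd1 fell by 0.39. In TMS against diffMMS, Apcdd1 was 2.73 higher and Nkd1, a Dishevelled antagonist, fell by 0.22. Over the 3 comparisons together, receptor, ligand and target genes were thus called in both directions, and in no list were all measured genes called. Between TMS and MMS, 0 of the Frizzled and LRP members were called lower by their main probe sets, beside 7.14% of all genes. The main probe set of Fzd7 gave -0.29 there without a call. Of all genes, 13.4% were called in TMS against MMS, 34% in diffMMS against MMS and 24.9% in TMS against diffMMS. Several of the list counts lay near these shares, and no list was tested against them.

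**Figure D4:**
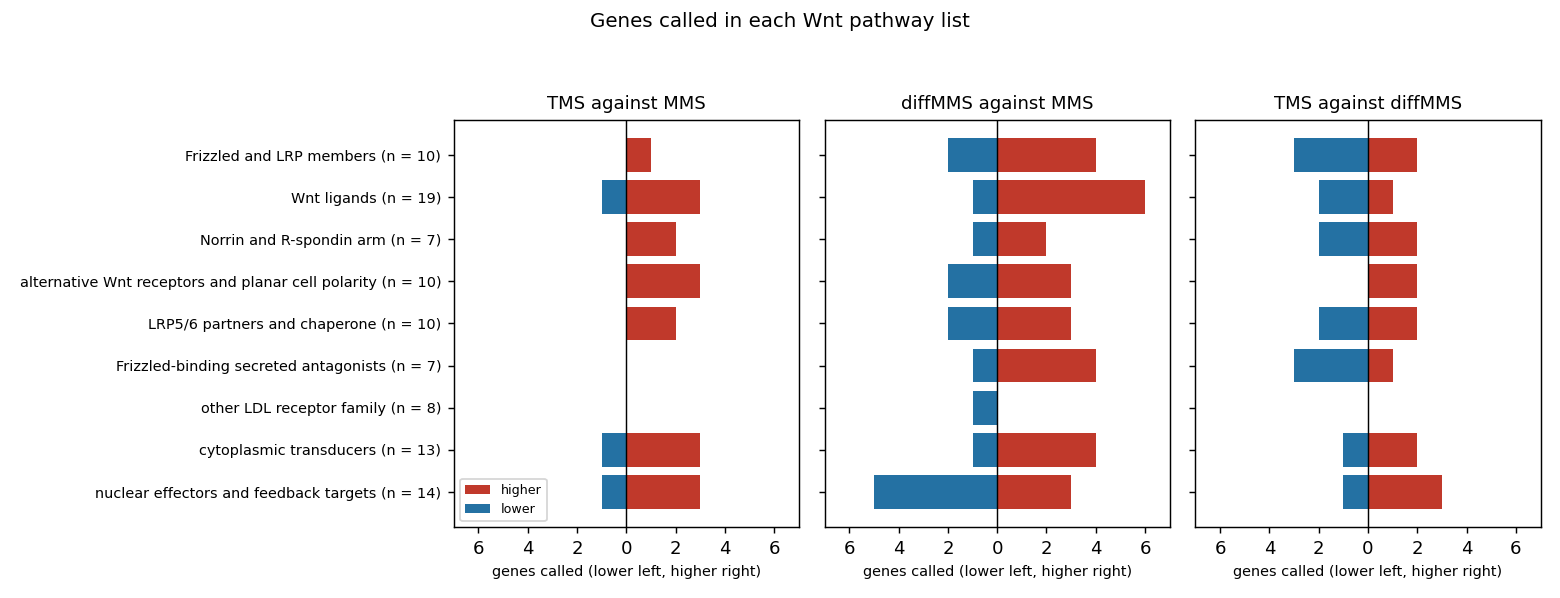
Number of genes called higher (right of 0) and lower (left of 0) in each Wnt pathway list and comparison, with the number of measured genes in brackets. Of the 10 Frizzled and LRP genes, 1 was called in TMS against MMS, 6 in diffMMS against MMS and 5 in TMS against diffMMS. The shares of all genes called were 13.4%, 34% and 24.9%.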

How the data were processed

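The authors deposited 1 table of probe set intensities on a linear scale, 1 column per array, already summarised per probe set and close in scale between arrays. The paper's methods name GeneSpring, and the summary and scaling methods are not given in the sources used here. Of 22690 probe sets, 64 were Affymetrix controls, used for scaling and left out of tests. By the platform's annotation 20380 of the others carry 1 gene symbol, 691 several and 1555 none, and no symbol changed through RefSeq (GRCm38.p6). A pseudocount of 8.67 (10% of the median) was added, log2 taken and the arrays quantile normalized, because quartiles differed by up to 0.163. Group means of all 9 arrays were fitted with limma 3.58.1 in R 4.3.3 (eBayes with an intensity trend, 6 residual degrees of freedom). All tests were two-sided, with the Benjamini-Hochberg adjustment taken over the 22626 probe sets. On simulated arrays for TMS against MMS, 77% of probe sets changed by 0.5 and 98% of those changed by 1 (log2) were called among 22626, with 9 false calls. These shares describe the simulated arrays and need not hold for the real groups, whose median SD was 0.0937 in TMS and 0.0656 in MMS.

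The members and lists were chosen with earlier results of these data known. Every member and probe set was described. From each list the called genes with the largest rise or fall were named, with the 3 genes nearest in pattern to Fzd2, Fzd4 and Fzd8, and Ndp, Rnf43, Vangl1, Acta2, Krt18, Epcam, Cdh1 and Fzd9 added after their values were seen. Labels do not number replicates, which are named by array code. The tumorspheres came from independent tumors. For the other groups separate preparations are stated, and p values measure the spread between them. The number of arrays limits the precision. Figures were drawn with matplotlib 3.10.9 and the permutation test used SciPy 1.17.1. The paper's RT-PCR data were not used here.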

Additional observations from a re-analysis of the deposited data

How the results depend on the processing

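The results were recomputed with the values as deposited, arrays centred on the median, other pseudocounts, a filter on dim probe sets, other variance models, array weights, only the groups compared, other probe sets and each array left out. Of the 1017 recomputed differences of single probe sets, none changed sign where either value was called, 28 lost their call and 21 gained one. The number of members called between TMS and MMS was 1 as reported, 3 with the values as deposited, where Fzd5 and Lrp5 joined Fzd6, and 2 with array weights (Fzd6 and Fzd7, the second lower), with the probe set of the largest F or with the mean of all probe sets (Fzd6 and Lrp6). The cause was not tested. With 1 array left out it was 1 throughout, for diffMMS against MMS it ran from 4 to 7 (4 without MMS array 858A or diffMMS array 862A, 6 as reported) and for TMS against diffMMS it was 5 throughout. By their main probe sets, Fzd2, Fzd4 and Fzd8 kept their diffMMS calls against MMS and TMS, and Fzd6 kept its TMS calls against diffMMS and MMS, under each of the 18 other settings. The diffMMS call of Fzd3 was also lost with the values as deposited and with centred arrays. Without MMS array 859A or 860A, the number of probe sets called between TMS and MMS was 1863 or 1907, and with array weights it was 5860, against 3231 as reported. With centred arrays, 34.1% of the calls between TMS and MMS were higher, against 45.5%, and 38.3% between diffMMS and MMS, against 48.6%. No paired analysis was possible because the labels give no replicate numbers that join arrays of different groups. Of the 19 member probe sets, 4 had a median percentile under 25, and small changes of these were the least detectable.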

Other observations

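Fzd9, the remaining Frizzled gene with a probe set of its own, is not among the 10 members. It read 6.96, 6.85 and 6.75 in TMS, 6.72, 6.75 and 7.04 in diffMMS and 6.64, 6.74 and 6.61 in MMS. Among 8 measured genes of the wider LDL receptor family, to which Lrp5 and Lrp6 belong, 0 were called by limma between TMS and MMS or between TMS and diffMMS (1 and 0 at an unadjusted p under 0.05). Lrp1, a scavenging receptor, read 10.47, 10.36 and 10.28 in diffMMS and 10.60, 10.68 and 10.61 in MMS, and fell by 0.26 in diffMMS (adjusted p = 0.0395 from limma).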
